A study of Mus musculus with 6 samples.

Results

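The cathepsins and legumain are the proteases that cut proteins inside the lysosome, and 10 of their genes were followed here in cultured mouse astrocytes: Ctsa, Ctsb, Ctsc, Ctsd, Ctsh, Ctsk, Ctsl, Ctss, Ctsz and Lgmn, taken by gene name from a table of 55357 genes. Cortical astrocytes cultured from C57BL/6 mouse embryos, and shaken during culture to loosen other cells, received a CMV-FLAG-BRAF KE plasmid, which expresses BRAF with the RASopathy mutation K499E from a promoter active in many cell types (BRAF KE, 3 cultures). The comparison group was 3 nontransfected cultures (NT), labelled naive, that received no plasmid, and no empty-plasmid or wild-type BRAF cultures were analysed here, so BRAF KE, the plasmid and the transfection procedure cannot be told apart in these data. RNA was collected 48 hours after transfection. The labels number the cultures 1 to 3 in each group and do not say whether they came from separate animals, so p-values measure only the spread between these cultures.

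Cathepsins are made as inactive precursors, are carried to the lysosome by mannose 6-phosphate receptors and become active there by being cut. Most are cysteine proteases of the papain type, whereas cathepsin D is an aspartic protease, cathepsin A is a serine carboxypeptidase and legumain, a cysteine protease of another type, cuts after asparagine. Cathepsins B, D and L work in nearly all cells, and cathepsins S and C are made mainly by cells of the immune system, which in the brain are microglia and macrophages. Cystatins hold the cysteine cathepsins in check, chiefly outside the lysosome.

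The values are gene counts divided by a size factor per culture (normalized counts), and the comparison is log2(normalized count + 1) in KE minus NT (log2FC) in limma, with Benjamini-Hochberg adjustment over the 15280 genes with a mean of at least 10. The approximate depth was 24500000 to 34200000 reads per culture, lowest in KE replicate 2, and the 10 genes took 0.47% to 0.492% of all normalized counts in KE and 0.605% to 0.636% in NT. Braf, which checks the labels, was 34933 to 40978 in KE and 811 to 946 in NT. Of the 10 genes, 9 passed the filter on low values. Among these, 7 were downregulated, 1 was upregulated and 1 did not pass the test, with a median log2FC of -0.77. Of all tested genes, 51.3% passed the test, 26.0% downregulated and 25.3% upregulated, with a median log2FC of 0.00. In a single gene, an exact permutation test of 3 cultures against 3 cannot give a two-sided p below 0.1.

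Ctss (ENSMUSG00000038642), on the plus strand of chromosome 3 of GRCm39 from 95433963 to 95463717, encodes cathepsin S, the enzyme that trims the invariant chain of MHC class II. KE replicates 1 to 3 had 708, 987 and 755 normalized counts, and NT replicates 1 to 3, in the order kept throughout, had 6476, 6406 and 5400. Every KE culture lay far below every NT culture, and the KE mean of 817 ± 149 (SD, n = 3) was 7.46-fold lower than the NT mean of 6094 ± 602 (SD, n = 3). The log2FC was -2.91 (standard error 0.12, 95% interval -3.16 to -2.65, adjusted p = 1.7e-08 from limma), and 1.71% of the tested genes fell further. Ctsk (ENSMUSG00000028111) lies 17230 bases upstream of Ctss on the same strand. It encodes cathepsin K, the collagen-cutting enzyme of osteoclasts, and was 7.22, 7.50 and 6.34 in KE and 10.9, 9.30 and 3.82 in NT. The 2 groups overlapped, and its low means, 7.02 ± 0.61 in KE against 8.01 ± 3.71 in NT (SD, n = 3), kept it out of the test.

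Cathepsins C and H are aminopeptidases. Ctsc (ENSMUSG00000030560, chromosome 7 from 87927092 to 87960096, plus strand) encodes dipeptidyl peptidase I, which activates the serine proteases of immune granules. It was 1644, 1902 and 1633 in KE and 6217, 5502 and 5175 in NT. The groups did not overlap, and the log2FC was -1.70 (standard error 0.08, 95% interval -1.89 to -1.52, adjusted p = 5.0e-08 from limma). Ctsh (ENSMUSG00000032359, chromosome 9 from 89936205 to 89958148, plus strand) was 442, 507 and 465 in KE and 1122, 1031 and 925 in NT. Its KE mean of 471 ± 32.8 (SD, n = 3) was 2.18-fold lower than the NT mean of 1026 ± 98.3 (SD, n = 3), and limma gave a log2FC of -1.12 with a standard error of 0.09 (adjusted p = 2.6e-06).

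Lgmn (ENSMUSG00000021190, chromosome 12 from 102359122 to 102414682, minus strand) encodes legumain, which also cuts the single chains of several cathepsins into their mature forms. It was 3301, 3745 and 3470 in KE and 8000, 7846 and 6974 in NT. All KE values lay below all NT values. The log2FC was -1.12 (standard error 0.07, 95% interval -1.27 to -0.96, adjusted p = 2.9e-07 from limma), close to that of Ctsh, whose 95% interval ran from -1.32 to -0.91.

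Ctsd (ENSMUSG00000007891, chromosome 7 from 141929646 to 141941775, minus strand) encodes cathepsin D and ranked 25th of all genes by mean normalized count over the 6 cultures. It was 49295, 53691 and 49332 in KE and 85305, 86694 and 87375 in NT. The cultures within each group lay close together, and the KE mean of 50773 ± 2527 (SD, n = 3) was 1.70-fold lower than the NT mean of 86458 ± 1055 (SD, n = 3). The log2FC was -0.77 (standard error 0.06, adjusted p = 2.6e-06 from limma).

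Smaller downregulation was found for Ctsa and Ctsz, both of which encode carboxypeptidases. Ctsa (ENSMUSG00000017760, chromosome 2 from 164674778 to 164682961, plus strand), whose product also shields beta-galactosidase and neuraminidase 1 in the lysosome, was 4229, 4528 and 4302 in KE and 5772, 5913 and 4979 in NT (log2FC -0.35, standard error 0.07, adjusted p = 0.0018 from limma). Ctsz (ENSMUSG00000016256, chromosome 2 from 174267304 to 174280832, minus strand) was 6041, 6228 and 5762 in KE and 7291, 8194 and 6576 in NT. Its log2FC was -0.29 (standard error 0.08, adjusted p = 0.0092 from limma), and without the variance trend in limma its adjusted p was 0.0507. In both genes the groups lay next to each other without overlap.

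The remaining pair did not fall. Ctsl (ENSMUSG00000021477, chromosome 13 from 64507151 to 64518704, minus strand), a broadly expressed endopeptidase, was 18845, 17157 and 17128 in KE and 12385, 13742 and 13026 in NT. Every KE culture was above every NT culture, and the mean rose from 13051 ± 679 to 17710 ± 983 (SD, n = 3), and limma gave a log2FC of 0.44 with a 95% interval of 0.30 to 0.58 (adjusted p = 1.5e-04). Ctsb (ENSMUSG00000021939, chromosome 14 from 63358384 to 63383372, plus strand), an endopeptidase that also removes dipeptides from the carboxyl end, was 60546, 61852 and 63685 in KE and 57625, 59432 and 54355 in NT. The KE values were all higher, yet the log2FC of 0.12 (95% interval -0.02 to 0.26, adjusted p = 0.138 from limma) did not pass the test. The 9 tested genes were thus free of overlap between the groups, 7 with lower and 2 with higher KE values, while 59.9% of all tested genes were free of overlap, 29.9% with lower and 30.1% with higher KE values.

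**Figure D1:**
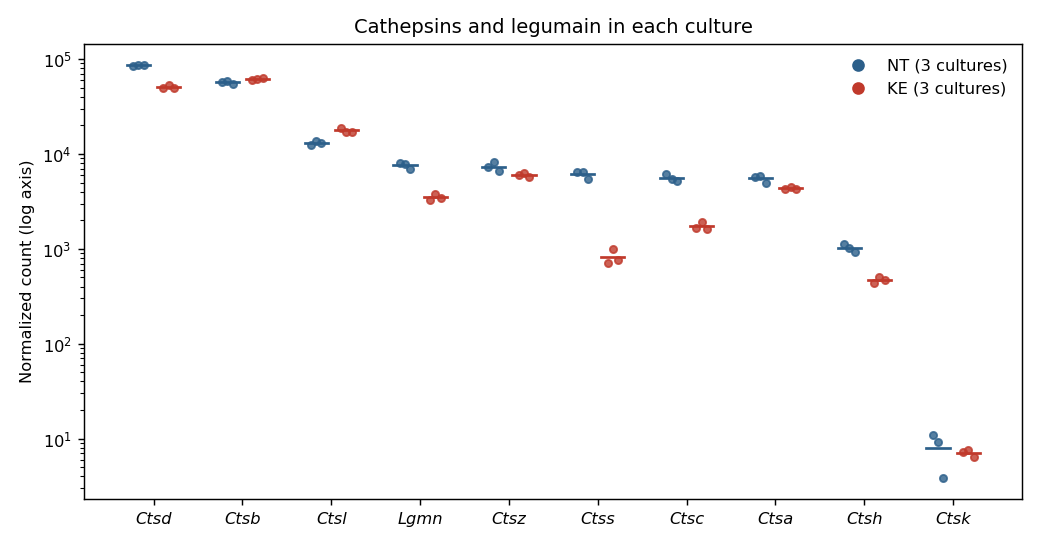
Normalized counts (log axis) of the 10 genes in each of the 3 NT cultures (blue) and the 3 KE cultures (red), ordered by NT mean, with a line at each group mean. Ctss shows the widest gap, from 708 to 987 in KE against 5400 to 6476 in NT, while Ctsl is higher in KE and Ctsk overlaps at under 11 normalized counts.

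Some of these values may include reads of a neighbour. In the Gencode vM39 annotation, exons on the opposite strand overlap Ctsa (Pltp and Neurl2), Ctsb (Fdft1), Ctsz (Nelfcd) and Ctsl (Gm47123). The library kit keeps the strand, but whether the counting used it is not given in the sources used here. Fdft1 was 7261 in KE and 6395 in NT, Pltp 1222 and 1066, and Nelfcd 1277 and 1461. Ctsd shares 808 exonic bases with Gm49369 on its own strand, which was 19.2 in KE and 19.6 in NT. Ctsl shares 1742 exonic bases with Gm47123 and 395 with the pseudogene Gm49230 on its own strand, and both are listed at 0 in all 6 cultures.

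The genes were compared with each other after dividing each normalized count by the length of the gene's merged exons in kilobases. On this scale the sum over the 10 genes was 31865, 33640 and 32001 in KE and 46689, 47736 and 46226 in NT. Every KE culture thus lay below every NT culture. The sum averaged 32502 in KE and 46884 in NT. Most of that difference was Ctsd, which averaged 18349 per kilobase in KE and 31246 in NT. Cathepsins outside the 10 genes are not in the sum. Ctsd made up 66.7% ± 1.44 (SD, n = 3) of the summed level in NT and 56.4% ± 1.08 (SD, n = 3) in KE. The share of Ctsb was 15.9% ± 0.48 in NT and 24.9% ± 0.99 in KE, and that of Ctsl 4.17% ± 0.18 in NT and 8.18% ± 0.62 in KE (SD, n = 3). Ctsb itself, at 7446 per kilobase in NT and 8083 in KE, did not pass the test, so its larger share mainly reflects the smaller sum. Ctss took 2.45% ± 0.22 in NT and 0.472% ± 0.071 in KE (SD, n = 3). The shares of these 4 genes did not overlap between the groups, and they are given as a description with no test. They depend on the length used, and the closing section gives them for other lengths.

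In NT the order per kilobase was Ctsd, Ctsb, Ctsz, Ctsl, Ctss, Ctsa, Lgmn, Ctsc, Ctsh and Ctsk. The ranges of Ctsz and Ctsl, of Ctss and Ctsa, and of Lgmn and Ctsc overlapped, so these neighbours were not separated, and the order from the third to the eighth place changed with the length used. In KE it was Ctsd, Ctsb, Ctsl, Ctsz, Ctsa, Lgmn, Ctsc, Ctss, Ctsh and Ctsk, with no overlap between neighbours and the same order with the longest or the canonical transcript. On this scale Ctss was 1149 ± 114 per kilobase in NT and 154 ± 28.1 per kilobase in KE (SD, n = 3).

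**Figure D2:**
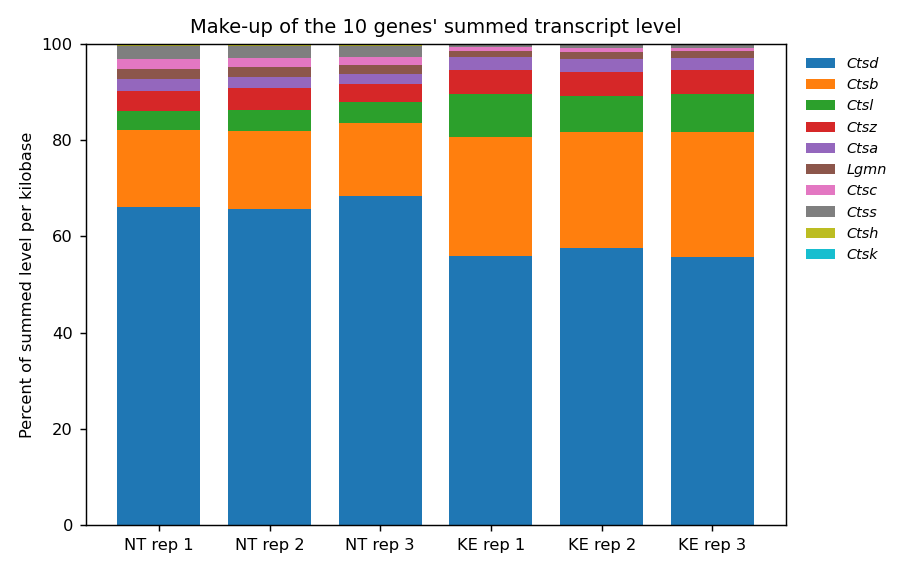
Stacked bars of the share of each of the 10 genes in their summed level per kilobase (percent), for the 3 NT and the 3 KE cultures. Ctsd narrows from 66.7% on average in NT to 56.4% in KE, and the segments of Ctsb and Ctsl widen as shares of a smaller sum.

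To show what stands before these genes, the bases before the start of the canonical transcript were read from GRCm39 and searched on both strands for the E-box CACGTG, which TFEB and TFE3 bind in many lysosomal genes, and for the interferon-stimulated response element, read as GAAA, any 2 bases and GAAA. A PU.1 site (GAGGAAGT) and an AP-1 site (TGANTCA) were searched too. The 250 bases before Ctsd, the highest of the 10 genes per kilobase in both groups, at chr7:141941776-141942025 on the minus strand, hold an E-box 34 bases and an interferon-type match 217 bases before the start. Those before Ctsc, which had the second largest fall, at chr7:87926842-87927091 on the plus strand, hold none of the 4. Matches are in capitals.
Ctsd: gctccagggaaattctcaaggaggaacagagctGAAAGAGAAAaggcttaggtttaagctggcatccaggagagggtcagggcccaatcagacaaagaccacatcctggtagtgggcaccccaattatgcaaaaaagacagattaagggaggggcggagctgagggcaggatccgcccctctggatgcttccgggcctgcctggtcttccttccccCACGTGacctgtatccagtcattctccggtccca
Ctsc: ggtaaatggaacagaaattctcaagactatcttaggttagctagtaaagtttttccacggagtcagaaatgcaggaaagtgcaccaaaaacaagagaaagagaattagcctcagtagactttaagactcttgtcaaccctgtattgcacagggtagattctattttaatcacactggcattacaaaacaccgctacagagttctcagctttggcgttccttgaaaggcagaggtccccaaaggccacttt

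Interferon-type matches were found before the canonical start of 3 of the 10 genes, Ctsb, Ctsd and Ctss, where 3.34% of 21247 promoters of protein-coding genes hold one. The match of Ctss begins 13 bases before the start and that of Ctsb 97 bases before it. Both lie inside the gene's full annotated span, which begins further upstream with other transcripts, and 67 of the 250 bases before Ctss and 3 of those before Ctsb are annotated as exon. For each match, 30 bases are shown because these genes moved differently, Ctss with the largest fall and Ctsb without a call.
Ctss, chr3:95434059-95434088, plus strand: ctcataagtctttaaatGAAACCGAAAtga
Ctsb, chr14:63359770-63359799, plus strand: atctctgtgcGAAATGGAAAgagagcagac
The E-box was found before 1 of the 10 genes and 6.33% of all promoters, and the PU.1 and AP-1 letters before 0 of the 10 and 2.08% and 6.22% of all promoters. No 2 of these matches overlap. A match describes the sequence and is not a measured binding site.

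Among the 14 other cathepsin genes listed, only Ctso and Ctsf passed the filter, and both were upregulated. Ctso, which encodes cathepsin O, was 2126, 2096 and 2208 in KE and 1308, 1339 and 1256 in NT (log2FC 0.72, standard error 0.06, adjusted p = 2.7e-06 from limma). Ctsf, for cathepsin F, was 1098, 1125 and 1089 in KE and 736, 735 and 843 in NT (log2FC 0.52). Neither gene overlapped between the groups. Of the other 12, 9 are listed at 0 in all 6 cultures, and Ctse, an aspartic protease, was 3.32 in KE and 7.50 in NT on average.

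Among the inhibitors, the genes that passed the test went in both directions. Of 23 listed, 10 were tested, of which 2 were upregulated, 4 were downregulated and 4 did not pass the test. Of all tested genes, 51.3% passed it. Cst3, which encodes cystatin C, the abundant secreted inhibitor made by astrocytes, was 75919, 81199 and 66474 in KE and 30749, 31833 and 28089 in NT. Every KE culture was above every NT culture, and limma gave a log2FC of 1.30 with a standard error of 0.08 (adjusted p = 3.3e-07). Cstb, for the intracellular cystatin B, had a log2FC of 0.30. Cst7, which encodes cystatin F, an inhibitor of cathepsin C in immune cells, was 13.5, 16.3 and 14.5 in KE and 180, 154 and 150 in NT (log2FC -3.37). Ctla2a and Ctla2b, which resemble the propeptide of cathepsin L, had log2FC of -3.48 and -3.62, and because the copies are near-identical in part, how reads were split among them is uncertain. Serpinb6b was also downregulated (log2FC -2.23).

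**Figure D3:**
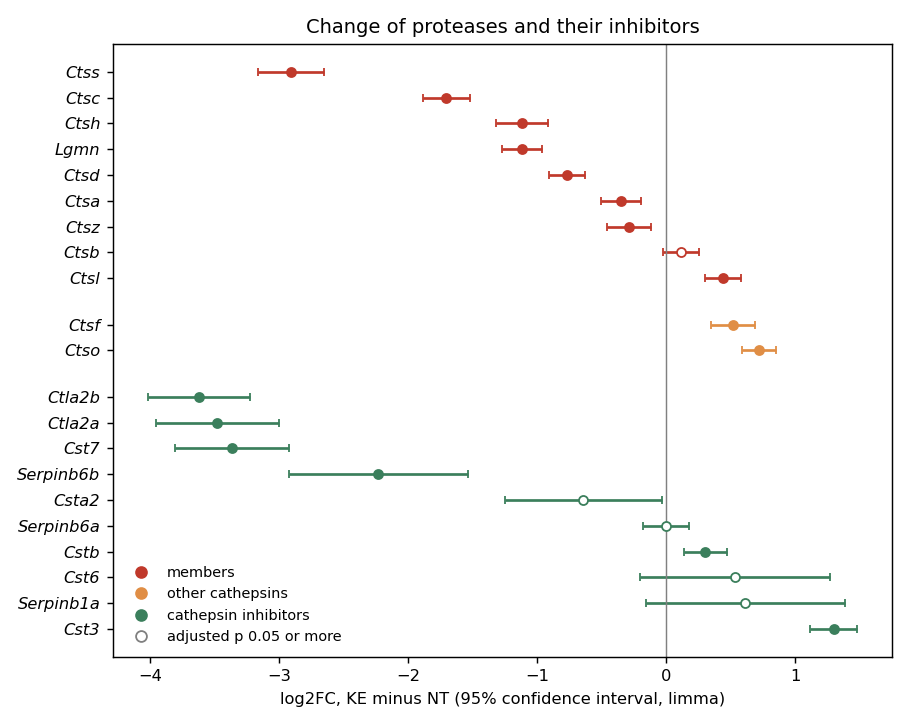
log2FC of KE minus NT with 95% confidence intervals from limma for the 9 tested genes, the 2 other tested cathepsins and the 10 tested inhibitors. Filled points have an adjusted p under 0.05. Values run from -2.91 (Ctss) to 0.44 (Ctsl) among the 9 genes, and from -3.62 (Ctla2b) to 1.30 (Cst3) among the inhibitors.

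Of 15 tested genes that bring cathepsins to the lysosome, 3 were upregulated, 4 were downregulated and 8 did not pass the test, where 51.3% of all tested genes passed it. Their log2FC lay between -0.51 and 0.47. Pcsk7, among the downregulated, had a log2FC of -0.27 (adjusted p = 0.0248 in limma). It did not pass the test without the variance trend (adjusted p = 0.0559 in limma), nor without KE replicate 1 or 3 or NT replicate 1 or 2. The mannose 6-phosphate receptors M6pr (log2FC 0.04) and Igf2r (0.05) did not pass the test. Gnptab, for the catalytic part of the enzyme that adds the mannose 6-phosphate tag, was 1260, 1262 and 1389 in KE and 1732, 1831 and 1999 in NT (log2FC -0.51), and Gnptg, for its other subunit, rose (log2FC 0.47). Psap, whose product is cut by cathepsin D into saposins, had a log2FC of 0.21, and did not pass the test with quantile normalization (log2FC 0.14, adjusted p = 0.0591 in limma). Of the transcription factors of lysosomal genes, Tfeb (0.19), Tfe3 (0.09) and Mitf (0.08) did not pass the test. Tfec, the relative found in macrophages, was 5.38, 4.08 and 7.20 in KE and 84.7, 61.1 and 59.2 in NT (log2FC -3.41).

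Of 16 genes for partners and substrates of cathepsins, 4 were upregulated, 6 were downregulated and 6 did not pass the test. The share of all tested genes that passed was 51.3%. The toll-like receptors Tlr7 and Tlr9, which cathepsins and legumain cut into their active form, had log2FC of -3.43 and -3.19, and Unc93b1, which escorts them, -0.78. The invariant chain gene Cd74, the substrate of cathepsin S, was low in both groups, at 48.0, 79.3 and 56.2 in KE and 114, 111 and 116 in NT (log2FC -0.91). H2-DMb1 (-0.66), for a chain of the protein that loads peptides onto MHC class II, and Mpeg1 (-1.85), for a pore-forming protein of macrophages, also fell. H2-DMa (-0.01), for the partner chain of H2-DMb1, and Gsdmd (-0.48, adjusted p = 0.0603 in limma), for the pore-forming gasdermin D, did not pass the test, although without NT replicate 3 Gsdmd did (log2FC -0.71, adjusted p = 0.0038). Neu1 (0.13) and Glb1 (0.06), the enzymes held in a complex by cathepsin A, did not pass the test, whereas Lamp1 (0.37) and Lamp2 (0.51), for the main proteins of the lysosomal membrane, rose.

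Other lysosomal hydrolases served for comparison, where 25.3% of all tested genes were upregulated and 26.0% downregulated. Of 38 tested, 21 were upregulated, 9 were downregulated and 8 did not pass the test, with a median log2FC of 0.29 against -0.77 for the 9 cathepsin and legumain genes. Among the most highly expressed, Tpp1, a lysosomal peptidase, had a log2FC of 0.60. The largest rise was that of Aga (1.05), which trims asparagine-linked sugars from glycoproteins, and Gusb, for beta-glucuronidase, was among those that fell (-1.13). No test of the difference between these lists was made.

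**Figure D4:**
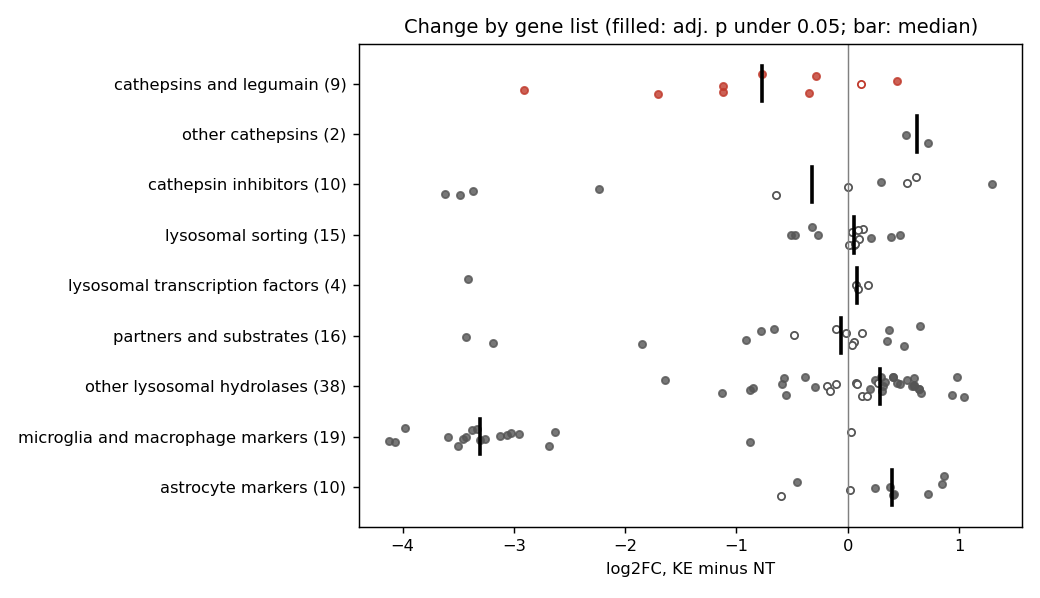
log2FC of KE minus NT for each tested gene by list, with the number tested in parentheses, filled where the adjusted p from limma was under 0.05 and with a bar at the median. The 9 tested cathepsin and legumain genes spread from -2.91 to 0.44, the microglia and macrophage markers have a median of -3.31 and the other lysosomal hydrolases one of 0.29.

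Most of the listed markers of microglia and macrophages also fell. Of 20 listed, 18 were downregulated, where 26.0% of all tested genes were. The median log2FC was -3.31 over the 19 tested, Sall1 (0.03) did not pass the test and Siglech is listed at 0 in all 6 cultures. Apart from P2ry12, the downregulated markers had log2FC from -4.12 for Fcrls to -2.63 for Tmem119. Ctss, at -2.91, lay within this range, and the other downregulated cathepsin and legumain genes fell less. P2ry12, a receptor of resting microglia, stood apart at -0.88, which was less than the fall of Ctss, Ctsc, Ctsh and Lgmn. The summed normalized counts of the list lay between 7137 and 9617 in KE and between 50916 and 61401 in NT, 7.21-fold lower on average in KE. Without Sall1, which made up much of the KE sum and was set aside after its value was seen, the sums lay between 4414 and 6843 in KE and between 48237 and 58719 in NT, 10.6-fold lower on average in KE. Ctss was 7.46-fold lower, Ctsc 3.26-fold and Lgmn 2.17-fold. KE replicate 2, which had the lowest depth, had the highest marker sum among KE cultures, and each of the 7 downregulated genes was also highest there. Sums of astrocyte and oligodendrocyte lineage markers, inhibitors, sorting genes, lysosomal transcription factors and other hydrolases were highest there too. Sums of other cathepsins, partners and substrates, and vascular and mesenchymal markers were lowest there, and that of neuron markers was between. In NT replicate 3 the microglia and macrophage marker sum was the lowest of the NT cultures, as were 6 of the 7 genes. Sums of inhibitors, lysosomal transcription factors, partners and substrates, other hydrolases, and vascular and mesenchymal markers were lowest there too. Those of other cathepsins and of astrocyte, neuron and oligodendrocyte lineage markers were highest there, and that of sorting genes was between. With 3 cultures per group, these ranks are a description and were not tested. Among NT cultures the marker sum of NT replicate 1, 61401, was barely above that of NT replicate 2, 61340. In NT replicate 1, 4 of the 7 genes were highest and 1, Ctsd, was lowest, and in NT replicate 2, 2 were highest. KE replicate 1 had the lowest sum of the full list among KE cultures, with 5 of the 7 genes lowest. Without Sall1 the lowest KE sum was that of KE replicate 3, 4414 against 4420 in KE replicate 1, with 2 of the 7 genes lowest. In RNA from whole cultures, fewer cells of a type and less RNA per cell cannot be told apart. The part of these cells in the fall of Ctss, Ctsc, Ctsh, Lgmn, Ctsd, Ctsa and Ctsz was not tested.

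Of 10 astrocyte markers, 7 were upregulated and 1, Gja1, was downregulated. The 4 with the highest means were Slc1a3 (log2FC 0.25), Glul (0.38), Gfap (0.87) and Aldh1l1 (0.72), of which Gfap, for the intermediate filament of astrocytes, averaged 31508 in KE and 17292 in NT. With quantile normalization Slc1a3, a glutamate transporter, had a log2FC of 0.09 and did not pass the test (adjusted p = 0.209 in limma), while the calls of Gfap, Slc1a2, Aldh1l1, Aldoc, Sox9 and Glul were the same under each alternative run. S100b was low in both groups, at 17.7 in KE and 26.7 in NT. Among the other cell types checked, oligodendrocyte lineage markers were downregulated in 8 of 9 tested, vascular and mesenchymal markers upregulated in 3 and downregulated in 3 of 9, and neuron markers upregulated in 1 and downregulated in 2 of 7. These counts depended on single cultures, and 51.3% of all tested genes passed the test. Without KE replicate 3, 5 oligodendrocyte lineage markers were downregulated and 1 vascular or mesenchymal marker was upregulated. Without NT replicate 2, 5 oligodendrocyte lineage markers and 1 vascular or mesenchymal marker were downregulated, and without KE replicate 1, 2 neuron markers were upregulated.

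The profile of Ctss over the 6 cultures, as centred log2 values, was most like those of Rhoh, Colec12 and Havcr2 among all tested genes, with root mean square differences of 0.065, 0.077 and 0.082 on the log2 scale. These 3 genes had log2FC of -2.84, -3.00 and -2.90. The profile of Ctsl was most like those of Tsr3, Mapkapk3 and Rtn1, with differences of 0.028, 0.028 and 0.029, and log2FC of 0.42, 0.47 and 0.45. With 2 groups of 3, such likeness mainly reflects a similar difference between KE and NT.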

How the data were processed

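Poly(A) RNA was measured by stranded RNA-seq in 3 BRAF KE-transfected and 3 nontransfected cultures, grouped by the labels. The deposited signal values are gene counts that the authors divided by DESeq2 size factors after trimming with Trim Galore, alignment with STAR and counting with Salmon. The submitters' processing notes name GRCh38, a human build, and the methods give GRCm39 with Gencode for mouse samples. Of 55357 gene identifiers, all mouse, 54749 were found in Gencode vM39 on GRCm39, from which positions, lengths and promoters were read. The canonical transcript's start served for promoters, and promoters on chromosome 18 were not used here.

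Size factor scaling removes library size and leaves gene length in the values. Depth was estimated from the value of 1 read in low genes. A whole multiple of it was met, to within 0.1, by only 74.8% to 77.7% of low values, so whole reads were not recovered and no count test was run. Values were tested as log2(normalized count + 1), which understates the change of low genes, with limma 3.58.1 (variance trend, two-sided) in R 4.3.3 on genes with a mean of at least 10. Calls have a Benjamini-Hochberg adjusted p under 0.05 over 15280 genes. The script was tested on simulated data.

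All 10 cathepsin and legumain genes are named. Of each other list, genes with the highest means or direct relevance to a cathepsin are named (some items are not reported here), along with the 3 genes closest in profile to the largest rise and the largest fall. Genes, lists and motifs were chosen with earlier results of these data known. Alternatives were other pseudocounts, filters, scalings and lengths, no variance trend, a replicate block and leaving out each culture.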

Additional observations from a re-analysis of the deposited data

How the results depend on the processing

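Of 126 recomputed log2FC of the 9 tested genes, 125 had the same sign and the same call as in the report, and none reversed. The exception was Ctsz without the variance trend, with a log2FC of -0.29 and an adjusted p of 0.0507 in limma, where its adjusted p ranged from 0.0019 to 0.0507 over all settings. The log2FC of Ctss ranged from -3.05 to -2.81 and that of Ctsl from 0.39 to 0.48, and Ctsb did not pass the test under any setting run. Leaving out each culture in turn gave 7 downregulated and 1 upregulated of the 9 genes each time. In the fits on all genes, 3280 to 3565 were then upregulated and 3496 to 3744 downregulated.

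A fit with replicate number as block gave 3967 genes upregulated and 4079 downregulated, with counts among the 9 genes of 7 downregulated and 1 upregulated. Cultures of the same number correlated at 0.0589, 0.0664 and 0.0651 in their deviations from the group means, each best with its own number, which is a hint from the data and under the 0.1 set for pairing. Gsdmd passed the test with the block (log2FC -0.48, adjusted p = 0.0372).

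Some counts of the context lists moved. Of the sorting genes, 3 to 4 were downregulated without 1 culture. Of the lysosomal transcription factors, 0 were downregulated with a mean of at least 50, since Tfec was then not tested. Of the neuron markers, 2 were upregulated with quantile normalization and 2 without the variance trend, and 1 to 2 without 1 culture. Of the oligodendrocyte lineage markers, 5 were downregulated without the trend and 5 to 8 without 1 culture, with 5 without KE replicate 3 or NT replicate 2. Of the vascular and mesenchymal markers, 1 was upregulated without the trend, 1 to 2 were upregulated without 1 culture and 1 to 3 downregulated. Slc1a3 and Psap did not pass the test with quantile normalization. The cause was not tested.

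The summed level and the shares depend on the length by construction. Without length scaling the KE sum was 0.776 of the NT sum, and the shares in KE and NT were 42.1% and 30.1% for Ctsb, 34.4% and 45.5% for Ctsd, 12.02% and 6.87% for Ctsl and 0.553% and 3.21% for Ctss. With the longest transcript they were 29.1% and 18.6% for Ctsb, 53.5% and 63.5% for Ctsd and 6.80% and 3.49% for Ctsl. With the canonical transcript, chosen after the data were seen, the ratio was 0.668 and the shares were 28.6% and 17.6% for Ctsb, 52.6% and 59.8% for Ctsd, 6.61% and 3.25% for Ctsl and 1.31% and 6.55% for Ctss. Ctsk stayed under 11 normalized counts, and without the filter on low values its log2FC was -0.07 (adjusted p = 0.94 in limma).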
